A study of Mus musculus with 6 samples.

Results

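Chemokines and their receptors were examined in the mouse olfactory epithelium, the lining of the nose in which odour-sensing neurons lie among supporting cells, glands, vessels and resident immune cells. Members were the genes whose symbol in the platform annotation starts with Ccl, Cxcl, Ccr, Cxcr or Cx3c followed by a digit, r or l, at probe sets that name a single gene, and each gene was read at its probe set of highest mean. They came to 49 genes of 18193 on the array, 32 ligands and 17 receptors, measured by 77 of 45101 probe sets. A single probe set represented 31 of them and several represented 18. Probe sets of the Ccl19, Ccl21 and Ccl27 copies that carry several gene names fell outside the rule.

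The study compared 3 arrays of mice homozygous for OMP-GFP with 3 arrays of heterozygous mice, one RNA sample per Affymetrix mouse 430 2.0 array, to examine the effect of olfactory marker protein on gene expression. In this line, as background, green fluorescent protein replaces the coding sequence of Omp, so homozygous mice lack the protein and heterozygous mice keep 1 intact allele. By the titles every animal therefore carried the GFP allele, and the groups differ in GFP copies as well as in olfactory marker protein. No wild-type group was analysed here. Strain background, age, sex and pooling are not given in the labels, so the spread between arrays may be technical in part.

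Chemokines are small secreted proteins that steer the migration of leukocytes, and in some tissues of neurons and their precursors, along concentration gradients. They are named by the spacing of their first cysteines as CC, CXC or CX3C ligands, and their receptors couple to inhibitory G proteins. Inflammatory members are induced on injury or infection, while constitutive members place cells in healthy tissue. In the olfactory epithelium macrophages clear dying neurons, and chemokines that recruit them have been studied after olfactory bulb removal.

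Upstream sequence is shown for 3 neutrophil-attracting ligands, because the homozygous arrays of Cxcl1 and Cxcl2 all lay above the heterozygous ones, and for the brightest ligand and the brightest receptor. Cxcl3, the other of these 3 ligands, was dim and its groups overlapped. RefSeq promoter windows of build GRCm38.p6 were found for 36 of the 49 genes, and Cxcl5 was not among them. Each stretch below is the 100 bases just before the annotated start, 5′ to 3′ on the gene's strand. Capitals mark a match to the NF-kappaB consensus, searched on both strands, or TATAAA on the gene's strand. The coordinates are chr5:90891145-90891244 for Cxcl1, chr5:90903799-90903898 for Cxcl2, chr5:90786001-90786100 for Cxcl3 and chr6:117168435-117168534 for Cxcl12, all on the plus strand, and chr1:128592300-128592399 for Cxcr4 on the minus strand.
Cxcl1: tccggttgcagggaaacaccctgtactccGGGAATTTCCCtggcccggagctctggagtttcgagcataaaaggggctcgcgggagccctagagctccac
Cxcl2: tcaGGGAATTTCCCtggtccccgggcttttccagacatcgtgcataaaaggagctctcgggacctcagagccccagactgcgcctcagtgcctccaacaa
Cxcl3: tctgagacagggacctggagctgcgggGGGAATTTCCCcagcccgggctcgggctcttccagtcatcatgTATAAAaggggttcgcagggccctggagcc
Cxcl12: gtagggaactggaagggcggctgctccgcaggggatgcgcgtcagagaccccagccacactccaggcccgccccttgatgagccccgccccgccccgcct
Cxcr4: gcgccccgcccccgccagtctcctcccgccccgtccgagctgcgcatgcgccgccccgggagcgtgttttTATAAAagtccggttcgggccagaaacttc

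The run in Cxcl1, Cxcl2 and Cxcl3 matches the NF-kappaB consensus on both strands, the matches overlapping, and its first base lay 71, 97 and 73 bases before the start in that order. Over the full 300-base windows, which reach 50 bases past the start, the consensus was matched in 12 of the 36 genes, the ligands Ccl1, Ccl9, Ccl20, Ccl27a, Cxcl1, Cxcl2, Cxcl3 and Cxcl10 and the receptors Ccr1, Ccr3, Ccr6 and Ccrl2. That was 33.3% of the 36, beside 9.55% of the 27025 genes in the promoter table. The letters TATAAA, on either strand, occurred in 11 of the 36, or 30.56%, beside 15.67% of all genes in the table. A match describes these letters and is not evidence of a bound site.

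Before the comparison, the libraries were set against their labels. At the Omp probe set 1422199_at the signal was 5.7, 8.8 and 31.3 in homozygous 1, 2 and 3, against 26.3, 4663.8 and 9143 in those labelled heterozygous 1, 2 and 3. The library labelled heterozygous 1 thus lay with the homozygous arrays there, and heterozygous 3 read higher than heterozygous 2. Where this probe set lies in the gene is not known here. Counts, and the differences of some genes, are therefore also given without heterozygous 1. Some of these are also given without heterozygous 1 and 3 together. The brighter Omp probe set, 1422200_at, read between 7918.5 and 8774.4 in homozygous and between 7967.8 and 8708.7 in heterozygous arrays, so it did not set any library apart. The median signal of the arrays lay between 147.9 and 163.7. Olfactory neuron markers were present on all arrays: the 7 measured ones of 8 summed to between 60900 and 65360 in homozygous and between 48386 and 66619 in heterozygous arrays, lowest in heterozygous 3. The 10 olfactory bulb and brain markers summed to 4332 in heterozygous 3, and to between 3173 and 3543 on the other arrays. Of these markers 6 were highest in heterozygous 3, while Eomes and Cdhr1 were lowest there.

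Few chemokine genes were bright in this tissue. A gene was called bright if its mean log2 signal reached the 75th percentile of all non-control probe sets, measured if it reached the median, and dim below that. By this rule 5 of the 49 genes were bright, 10 more were measured and 34 were dim. The share measured or bright was 30.6% of the chemokine genes, beside 62.8% of all genes on the array, and the share bright was 10.2% beside 38.0%. Signals of different probe sets depend on their probes and are not transcript amounts, so these positions rank probe sets, not genes.

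The bright members were Cxcl12, Cxcr4, Cxcl17, Ccl27a and Ccl9. Cxcl12, which guides haematopoietic cells and migrating neurons, lay at the 94.65th percentile, and its receptor gene Cxcr4 at the 89.95th. Cxcl17, a mucosal chemokine of the airways, lay at the 84.57th, Ccl27a, a ligand of Ccr10 known from skin, at the 82.19th and Ccl9, a CC ligand of myeloid cells that binds Ccr1, at the 75.73rd. The measured members were the ligands Ccl28, Cxcl1, Cxcl5, Cx3cl1, Cxcl16, Ccl20, Ccl25 and Cxcl14 and the receptors Ccr1 and Cx3cr1. Cxcl14 lay just above the median at the 50.44th percentile, and Ccl12 was the gene nearest below it at the 47.67th.

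**Figure D1:**
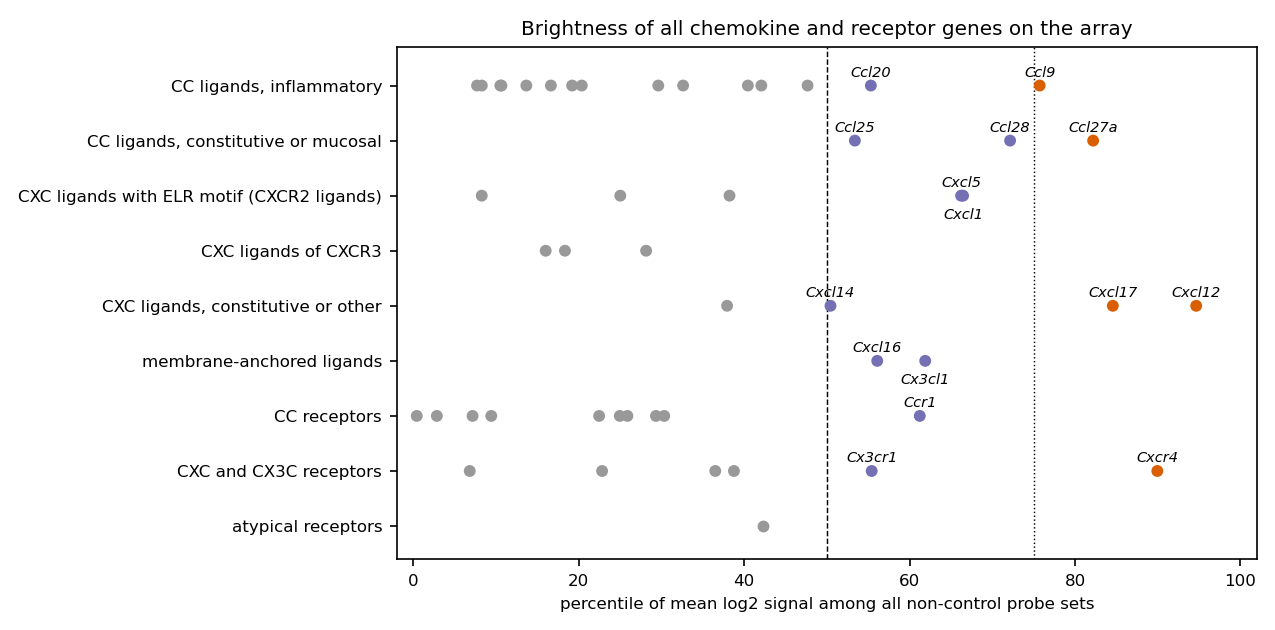
Each point is 1 of the 49 genes, placed by the percentile of its mean log2 signal over 6 arrays among all non-control probe sets and grouped in rows by role. The dashed line is the median, the dotted line the 75th percentile; grey points are dim, purple measured and orange bright, and all 3 ligands of CXCR3 are grey.

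The dim members fell mostly into particular roles. Of 15 inflammatory CC ligands 2 passed the median, and of 3 CXC ligands of Cxcr3, the interferon-induced Cxcl9, Cxcl10 and Cxcl11, 0 did. Of 10 CC receptors only Ccr1 passed, and of 6 CXC and CX3C receptors only Cxcr4 and Cx3cr1, while the atypical receptor gene Ccrl2 was dim. All 3 constitutive or mucosal CC ligands within the rule and both membrane-anchored ligands passed. Outside the rule, the probe set shared by the Ccl21 copies lay at the 89.54th percentile. The one shared by Ccl19 and its copies lay at the 27.41st. Single signals of the dim genes lay between 0.4 and 163.9, and 19 of the 34 had a median signal below 38.8, the offset added before logs were taken. Detection calls were not used here, so a dim gene is not called absent.

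Several ligands were measured while the receptor they are best known for was dim. Cxcr2, the receptor of Cxcl1 and Cxcl5 on neutrophils, read 13.2, 6.1 and 12.4 in homozygous arrays, against 13, 8.9 and 6.3 in heterozygous arrays. Ccr6, the receptor of Ccl20, read 80.6, 36.3 and 37.4 against 52.1, 40.1 and 60.7 in the same order of groups. Ccr9, the receptor of Ccl25, was dim at all of its probe sets, and so were Ccr10, the receptor of Ccl27a and Ccl28, and Cxcr6, the receptor of Cxcl16. On both sides, by contrast, Cxcl12 and Cxcr4, Ccl9 and Ccr1, and Cx3cl1 and Cx3cr1 passed the median. All 9 lymphocyte markers on the array were dim too, with a summed signal between 301.5 and 417.5 in homozygous and between 277.5 and 375.5 in heterozygous arrays. In whole tissue, fewer cells of a type and less RNA per cell cannot be told apart.

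No chemokine or receptor gene differed between the groups after adjustment. Of the 15 genes tested, 0 passed an adjusted p of 0.05 in limma, with Benjamini-Hochberg adjustment over all 22514 probe sets tested, beside 0% of all probe sets. Their adjusted p lay between 0.859 and 0.998. At an unadjusted p under 0.05 there was 1 gene higher in homozygous arrays, Cxcl5, where 2.41% of all genes tested were, and 1 lower, Ccl27a, where 2.41% were. The 3 homozygous values all lay above the heterozygous ones for 2 of the 15, Cxcl1 and Cxcl5, and all below for 1, Ccl27a, beside 4.82% and 5.51% of all genes tested. The differences were positive for 9 and negative for 6, with a median of 0.03 on the log2 scale, beside -0.00041 over the 11426 genes tested. The values below are therefore given as measurements that did not pass adjustment.

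**Figure D2:**
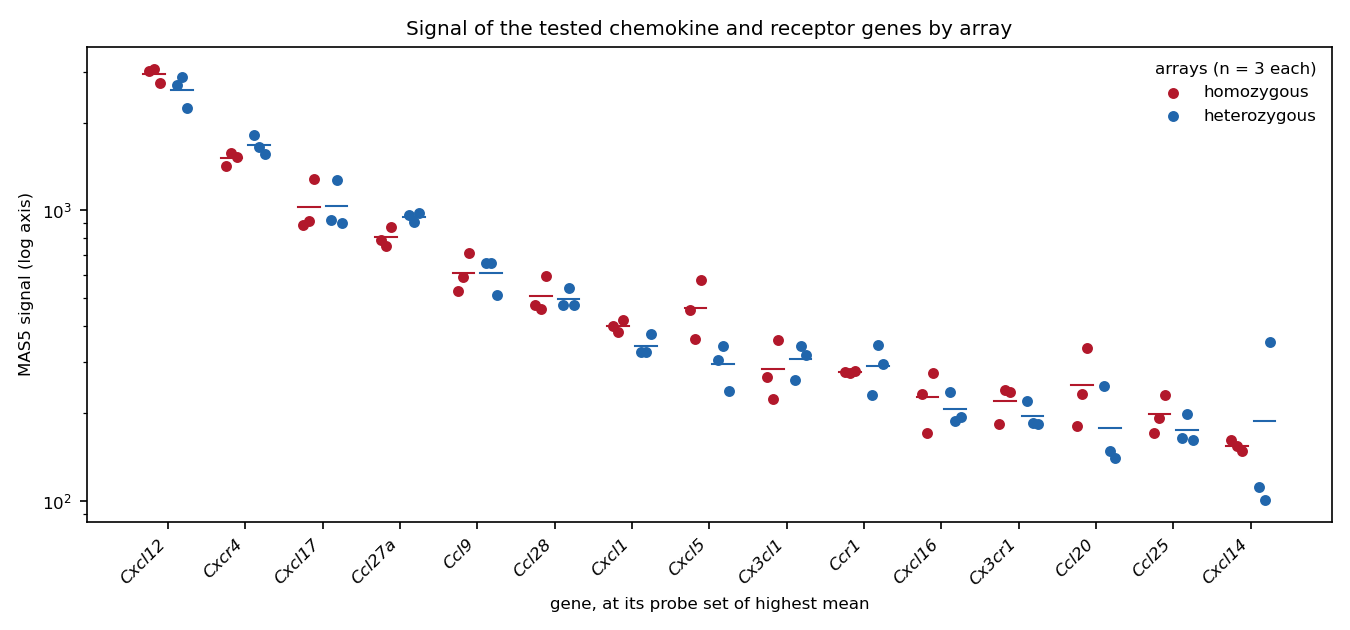
The MAS5 signal of each of the 15 tested genes is plotted on a log axis for 3 homozygous (red, left) and 3 heterozygous arrays (blue, right), with a line at each group's mean. The red and blue points do not overlap for Cxcl1, Cxcl5 and Ccl27a, and 1 blue point of Cxcl14, at 351.5, stands far above the others.

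The neutrophil-attracting CXC ligands carry an ELR motif and act on Cxcr2, and 2 of 5 were tested. Cxcl5, a ligand made mainly by epithelial cells, read 452.2, 359 and 572.6 in homozygous 1, 2 and 3, against 305.5, 340.9 and 238.1 in heterozygous 1, 2 and 3, in the order of the labels. The groups did not overlap, but homozygous 2 and heterozygous 2 lay close together. The difference came to 0.57 ± 0.17 (log2, homozygous minus heterozygous, ± SE), the largest among the 15, with a limma adjusted p of 0.859. It was 0.42 without homozygous 3, 0.45 without heterozygous 3, and 0.60 when the library labelled heterozygous 1 was left out.

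Cxcl1, whose product recruits neutrophils early in inflammation, read 398.8, 380.9 and 420.2 in homozygous arrays, against 325.3, 325.4 and 373.3 in heterozygous arrays. The groups lay close to each other without overlap, and the difference was 0.21 ± 0.11 (log2, SE), with a limma adjusted p of 0.893. This probe set, 1441855_x_at, may hold probes that other sequences share, as its suffix marks. The second tested probe set, 1457644_s_at, differed by 0.39 ± 0.19 and its groups overlapped, with 235 in homozygous 2. That difference was 0.23 without homozygous 3 and 0.64 without homozygous 2. The dim probe set 1419209_at read 195.6 in homozygous 3 and between 42.8 and 83.2 on the other arrays.

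Of the 3 dim ligands of this class, Cxcl2 had groups that did not overlap. It was singled out after its values were seen. It read 36.8, 41.2 and 71.2 in homozygous arrays, against 26.5, 24.1 and 27.1 in heterozygous arrays, all near or below the offset apart from homozygous 3. Among the 34 dim genes, each at its probe set of highest mean, Ccr7 was the other whose groups did not overlap, at 10.9, 7.4 and 9.1 against 2.9, 3 and 2.7 in heterozygous arrays. These 2 were both higher in homozygous arrays, and 0 dim members were lower throughout, beside 6.77% and 3.53% of all genes below the filter. The other probe sets of dim genes that parted the groups were those of Cxcr6 and Ccr9 given next, singled out after their values were seen. The share over all dim probe sets was not counted. Cxcr6 at 1422812_at read 22, 26.6 and 44.5 in homozygous arrays, against 4, 2.5 and 3.8 in heterozygous arrays, while its brighter probe set overlapped. Ccr9 at 1427419_x_at read 2.3, 3.9 and 8.1 against 13.6, 38.2 and 21.6 in heterozygous arrays, and at 1436065_at it was higher in homozygous arrays, at 10.8, 12.1 and 9.7 against 9.5, 4.6 and 3.9. At such signals the array gives little information on the size of a difference.

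Markers of neutrophils differed among themselves in the array on which they were highest. The 11 neutrophil markers on the array summed to 17029, 13434 and 21726 in homozygous 1, 2 and 3, against 13932, 15972 and 14754 in heterozygous arrays, so the groups overlapped. The sum was highest in homozygous 3, where Cxcl5 and Cxcl1 were also highest, but only 2 of the 11 markers peaked there, the bright genes Ltf and Lcn2. S100a8, S100a9, Ngp, Camp and Mpo were highest in homozygous 1, where red cell markers also had their highest sum, 1838, against 425 to 816 on the other arrays. Of the 7 neutrophil markers tested, 6 were higher and 1 lower in homozygous arrays, beside 49.8% of all genes tested with a positive difference, and their median difference was 0.43. At an unadjusted p under 0.05 there were 3 higher and 0 lower, beside 2.41% of all genes each way, and 0 passed adjustment. Groups did not overlap for 0 higher and 0 lower of the 7, beside 4.82% and 5.51% of all genes tested. The 4 dim markers, Mpo, Elane, Chil3 and Mmp8, had differences of 0.42, -0.20, 0.30 and -0.14. The part of neutrophil markers in the differences of Cxcl1 and Cxcl5 was not tested.

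Constitutive and mucosal CC ligands differed in both directions. Ccl27a read 789.8, 750.8 and 876.2 in homozygous arrays, against 959, 907.1 and 978.6 in heterozygous arrays. Every homozygous value lay below every heterozygous one, and the difference was -0.23 ± 0.09 (log2, SE) with a limma adjusted p of 0.859. Left-out arrays kept it between -0.29 and -0.18, but without homozygous 1, homozygous 2 or the library labelled heterozygous 1 its unadjusted p was no longer under 0.05. The probe set, 1434962_x_at, may share probes with other sequences, and Ccl27a has close copies. At 2 further probe sets, which the annotation gives to Ccl27a together with Ccl27b and other copies, the differences were -0.14 ± 0.08 and -0.18 ± 0.09, and neither set of values overlapped between groups. All 3 probe sets may report the same transcripts and are not independent measurements.

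Ccl28, a mucosal chemokine of glands that attracts plasma cells, had probe sets that disagreed in size. Its brightest, 1455577_at, read 470.1, 456.7 and 591.6 in homozygous arrays, against 470.1, 539.8 and 470.3 in heterozygous arrays, a difference of 0.03 ± 0.12 (log2, SE). At 1450217_at the values were 265, 319.9 and 390.4 against 250.3, 291.9 and 143.3, a difference of 0.48 ± 0.21, which was 0.22 without heterozygous 3. At 1450218_at the difference was 0.33 ± 0.25, and 0.07 without heterozygous 3. The lowest value at both of these probe sets was that of heterozygous 3, and the highest at all 3 was that of homozygous 3. Ccl25, a ligand of thymus and gut, differed by 0.14 ± 0.15 and 0.14 ± 0.15 at its 2 tested probe sets, with overlapping groups. At the brighter of these, 1418777_at, it was 0.05 without homozygous 3 and 0.23 without homozygous 1.

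The constitutive CXC ligands included the brightest member. Cxcl12 read 3017.3, 3074.6 and 2737.4 in homozygous arrays, against 2691.1, 2866.2 and 2243.8 in heterozygous arrays. The groups overlapped, heterozygous 3 was lowest, and the difference was 0.18 ± 0.10 (log2, SE), or 0.08 without heterozygous 3. Its second tested probe set, 1417574_at, read 1371.8, 1155.5 and 980.9 against 952.7, 1011.8 and 815, a difference of 0.32 ± 0.13 with a limma adjusted p of 0.859. There homozygous 3 lay within the heterozygous range, and the difference was 0.20 without homozygous 1. Endothelial cells are a tissue compartment in which Cxcl12 is commonly made. Their markers summed to between 3643 and 3764 in homozygous arrays and between 3145 and 3286 in heterozygous arrays, without overlap. Of the 7 tested, 6 were higher and 1 lower in homozygous arrays, beside 49.8% of all genes tested with a positive difference. At an unadjusted p under 0.05 in limma 1 was higher and 0 lower, beside 2.41% of all genes each way. Groups did not overlap for 4 higher and 0 lower, beside 4.82% and 5.51%, and 0 passed adjustment. The part of these markers in the Cxcl12 values was not tested.

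Cxcr4, the receptor of Cxcl12 on leukocytes, neural precursors and immature neurons, read 1415, 1578.2 and 1529.9 in homozygous arrays, against 1812.5, 1646.8 and 1557.1 in heterozygous arrays. The ranges overlapped slightly, at homozygous 2 and heterozygous 3. The difference was -0.14 ± 0.08 (log2, SE), with a limma adjusted p of 0.900, and -0.09 without the library labelled heterozygous 1, which had the highest value. Ligand and receptor thus differed in opposite directions, and neither passed adjustment.

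Cxcl14, an epithelial chemokine also made by neurons, rested on a single array at its probe set of highest mean, 1418457_at. It read 161.4, 153.7 and 148.3 in homozygous arrays, against 111.4, 100.3 and 351.5 in heterozygous arrays 1 to 3. The homozygous values lay between the heterozygous ones, and the difference of -0.06 ± 0.32 (log2, SE) was 0.42 without heterozygous 3. At its second probe set, 1418456_a_at, just below the filter at the 49.79th percentile, heterozygous 3 was again highest, at 257.4, while the other arrays lay between 108.4 and 161.2. The difference at this probe set was -0.47 with all arrays and stayed negative, at -0.27, without heterozygous 3. Heterozygous 3 is also the array with the highest sum of bulb and brain markers, 4332, and the lowest sum of olfactory neuron markers, 48386. Of the 10 bulb and brain markers 6 were highest there, among them Rbfox3 at 791.1 and Cplx1 at 738.2. Eomes and Cdhr1, at 205.2 and 2041.5, were lowest there. The part of either list in the Cxcl14 signal was not tested. Cxcl17 read 886.6, 920.1 and 1279.8 in homozygous arrays, against 926.5, 1267.8 and 900.9 in heterozygous arrays. A high array in each group left a difference of -0.01 ± 0.16.

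Inflammatory CC ligands that passed the filter were Ccl9 and Ccl20. Ccl20, an epithelial ligand that draws dendritic cells and lymphocytes, read 181.2, 232 and 336.3 in homozygous arrays, against 247.4, 147.8 and 140.1 in heterozygous arrays. The library labelled heterozygous 1 lay above both homozygous 1 and 2, and the difference of 0.41 ± 0.23 (log2, SE) was 0.62 without that library and 0.20 without homozygous 3. Ccl9 read 528.1, 588.3 and 713.7 against 658.4, 656.1 and 509.3 in heterozygous arrays, a difference of 0.0036 ± 0.13. Ccr1, the receptor of Ccl9 on myeloid cells, read 278.1, 274.8 and 280 against 231.2, 343.1 and 295.4, so the homozygous values lay within the heterozygous range. Its difference was -0.04 ± 0.14.

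The membrane-anchored ligands and the macrophage receptor Cx3cr1 showed overlapping groups. Cx3cl1 encodes fractalkine, a ligand held on the surface of neurons and epithelial or endothelial cells until it is shed. It read 267, 223.7 and 357.8 in homozygous arrays, against 259.7, 341 and 317.4 in heterozygous arrays, a difference of -0.11 ± 0.16 (log2, SE), and its second tested probe set differed by -0.0055 ± 0.14. Its receptor gene Cx3cr1, which marks resident macrophages, read 183.8, 240.2 and 236.2 against 219.6, 184.6 and 183.9, a difference of 0.14 ± 0.14. The lowest homozygous value, 183.8, was lower than all heterozygous values, and the difference was 0.08 without homozygous 2 and 0.24 without homozygous 1. Cxcl16, the other anchored ligand, differed by 0.10 ± 0.17. Macrophage and dendritic cell markers summed to between 10279 and 11412 in homozygous and between 9137 and 10351 in heterozygous arrays, with 12 of 13 tested markers higher in homozygous arrays, beside 49.8% of all genes tested. Of the 13, 5 were higher and 0 lower at an unadjusted p under 0.05, beside 2.41% of all genes each way. Groups did not overlap for 4 higher and 0 lower, beside 4.82% and 5.51%, and 0 passed adjustment. Their part in the Cx3cr1 values was not tested.

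**Figure D3:**
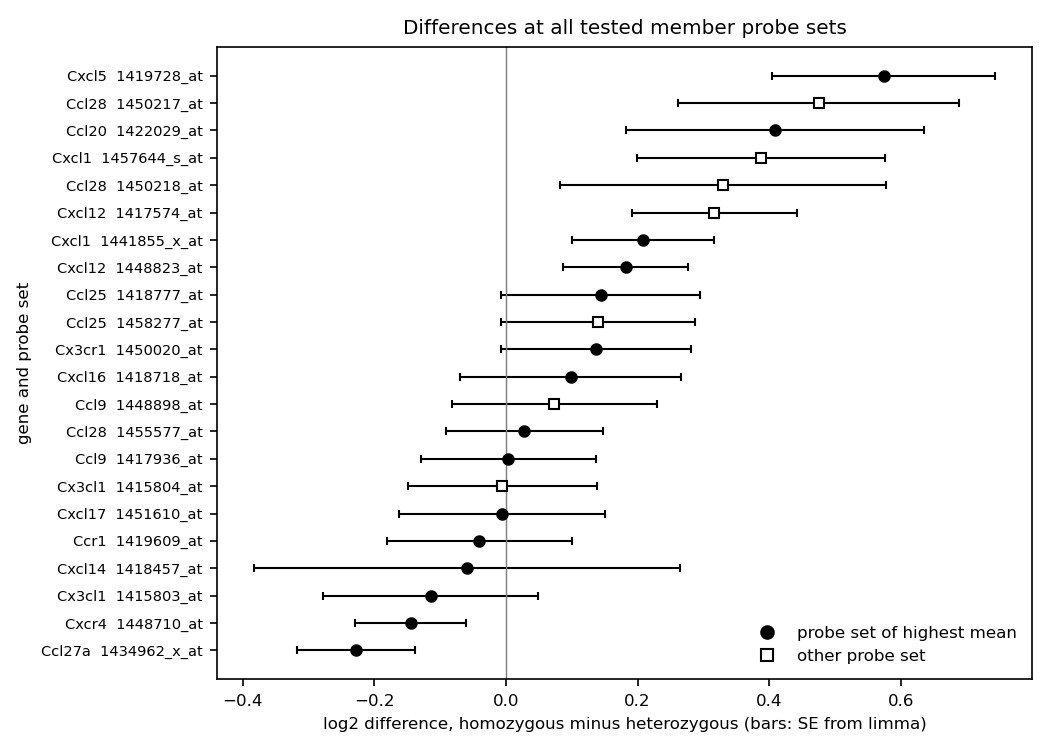
The log2 difference, homozygous minus heterozygous, is shown with its SE for the 22 member probe sets tested, filled circles for the probe set of highest mean of each gene and open squares for others. The points run from -0.23 for Ccl27a to 0.57 for Cxcl5, and the open squares of Ccl28 lie well to the right of its filled circle.

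Homozygous 3 stood highest among the arrays for most of the genes tested. It held the highest value for 9 of the 15, among them Cxcl5, Ccl20, Cxcl17 and Ccl28, and the lowest for 0. Among the 34 dim members it was highest for 7, and homozygous 1 was highest for 10. How many of all genes tested peaked in homozygous 3 was not counted. The median deviation of the 15 genes from their own means was 0.23 on the log2 scale in homozygous 3, beside -0.0011 over all genes tested on that array. In homozygous 1 and 2 it was -0.10 and -0.03, so the other homozygous arrays lay well below homozygous 3. Among heterozygous arrays it was -0.08, 0.05 and -0.12 for numbers 1, 2 and 3, the last of which held the lowest value for 5 genes. Without homozygous 3 the median difference over the chemokine genes tested was -0.05, beside 0.03 with all arrays.

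**Figure D4:**
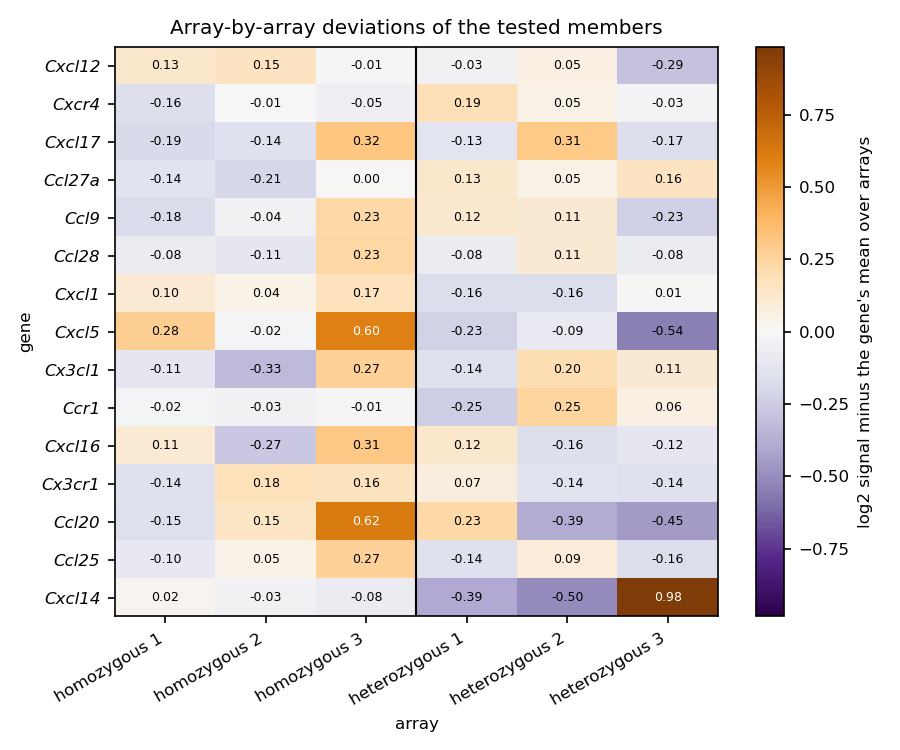
Each cell gives a gene's log2 signal on 1 array minus its mean over the 6 arrays, with homozygous arrays left of the black line and heterozygous arrays right of it. The homozygous 3 column is mostly orange, up to 0.62 for Ccl20, and the darkest cell is Cxcl14 in heterozygous 3, at 0.98.

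Genes that act with chemokines but fall outside the symbol rule were described from a list. Of 31 such genes on the array 21 were tested, 13 were higher and 8 lower in homozygous arrays, and 0 passed adjustment, with 2 higher and 0 lower at an unadjusted p under 0.05, beside 2.41% of all genes each way. The groups did not overlap for 4 higher and 2 lower, beside 4.82% and 5.51% of all genes tested. Their median difference was 0.02, beside -0.00041 over all genes tested. Rac2, a GTPase of leukocyte migration, read 562.3, 461 and 541.7 in homozygous arrays, against 420.6, 488.1 and 335.7 in heterozygous arrays. The groups overlapped at homozygous 2 and heterozygous 2, and the difference was 0.31 ± 0.14 (log2, SE). Grk3, a kinase that desensitises receptors including olfactory ones, read 752, 757.6 and 846.7 against 679.7, 669 and 690, without overlap, a difference of 0.20 ± 0.09. The limma adjusted p of both was 0.869. The brightest genes of the list were Mif, a cytokine that also binds Cxcr4, at -0.03 ± 0.08, and Adam10, a protease that sheds Cx3cl1 and Cxcl16, at -0.09 ± 0.08. Ackr3, the atypical receptor that takes up Cxcl12 and was named here after its values were seen, read 1068.3, 1148.3 and 1142.2 in homozygous arrays, against 1268.5, 1263.4 and 1035.2 in heterozygous arrays, with a difference of -0.08 ± 0.10.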

How the data were processed

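RNA of 6 olfactory epithelium samples was hybridised to Affymetrix mouse 430 2.0 arrays. The deposited values are linear MAS5 intensity signals, 1 per probe set and array, per the submitters' processing notes, which name no version or settings among the sources used here. Their 2% trimmed mean was about 500.002 on every array, so no further scaling was applied. Platform annotation names 1 gene for 34945 non-control probe sets.

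Values were taken as log2(value + 38.8), where the offset is the pooled 25th percentile and understates differences of dim genes. Non-control probe sets at or above the median of mean log2 values, 22514 in all, were tested with limma 3.58.1 in R 4.3.3 (lmFit, eBayes with intensity trend, 4 residual and 6.68 prior degrees of freedom, Benjamini-Hochberg adjustment). The fit was tested on simulated data. The number of arrays limits the precision, and the median SE was 0.11 on the log2 scale. Groups came from the titles, and no arrays held identical values.

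Members and gene lists were chosen with earlier results of these data known. Every member past the median filter was named, and 4 genes of the partner list, 2 for lowest p and 2 for highest mean. Role and marker lists were described by counts, medians or summed signals. Alternatives were other offsets, filters and scalings, a replicate block, left-out arrays, all probe sets averaged per gene and no intensity trend.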

Additional observations from a re-analysis of the deposited data

How the results depend on the processing

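Across the 16 alternatives, 0 chemokine genes passed adjustment in limma. Among all probe sets 0 passed with all arrays, 1 with the pooled-median offset, 27 without the libraries labelled heterozygous 1 and 3 together and between 0 and 25 with 1 array left out, the 25 without the library labelled heterozygous 1. The genes higher in homozygous arrays at an unadjusted p under 0.05 were 1 in the reported setting, 0 with the 75th-percentile filter or without heterozygous 1 and 3, 2 without an intensity trend and between 1 and 2 with 1 array left out. Those lower were 1, 0 without heterozygous 1 and 3, and between 0 and 1 with 1 array left out. Genes higher without overlap were 2, with 4 under no filter, 0 under the 75th-percentile filter, 1 with a common median per array, 1 with probe sets averaged and between 2 and 4 with 1 array left out. Those lower without overlap were 1, with 3 without heterozygous 1 and 3 and between 1 and 2 with 1 array left out. With the library labelled heterozygous 1 left out, the genes at an unadjusted p under 0.05 in limma were 2 higher and 0 lower. Those without overlap were then 3 higher and 2 lower. Fewer samples or genes make some of these changes by construction. The cause of the others was not tested.

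Of the 15 genes, 8 kept their sign wherever the filter kept them. Cxcl14 was one of these, but it fell below the filter without heterozygous 3. The probe set of highest mean was chosen anew in each setting, and for Cxcl14 it changed. Its values of -0.42 without homozygous 2 and -0.39 without homozygous 3 were those of 1418456_a_at. Without heterozygous 3 the Cxcl14 difference was 0.42 at 1418457_at and -0.27 at 1418456_a_at. Ccl9 was -0.0069 after quantile normalization, -0.039 with a common median and -0.11 without heterozygous 1 and 3, and Ccl28 was -0.014 with a common median and -0.095 without those libraries. Without them Ccl25 was -0.016. With 1 array left out the range was -0.17 to 0.15 for Cxcl17, -0.11 to 0.096 for Ccl9, -0.081 to 0.093 for Ccl28, -0.28 to 0.022 for Cx3cl1, -0.18 to 0.075 for Ccr1 and -0.033 to 0.26 for Cxcl16. Without heterozygous 1 and 3 the lone heterozygous array is assumed to vary like the other group.

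With the replicate number as a block, 2 genes were higher at an unadjusted p under 0.05 and 0 passed adjustment. Deviations of same-numbered arrays correlated at 0.016, -0.12 and -0.047, so the numbers were not taken as a pairing.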
